A study of Mus musculus with 6 samples.

Results

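The genes described are 8 WNT ligand genes (*Wnt3*, *Wnt3a*, *Wnt4*, *Wnt5a*, *Wnt5b*, *Wnt6*, *Wnt7b* and *Wnt8a*) and both core genes of WNT secretion, *Porcn* and *Wls*. They were chosen by gene symbol, with earlier results of these data known, and make up 10 of the 24736 genes measured. Poly(A) RNA of mouse cells was sequenced in 6 libraries, 3 biological replicates of embryonic stem cells (ESCs) and 3 of epiblast-like cells (EpiLCs). The ESCs were wild-type cells of the XY HM1 TetON line, collected at 0 h from cultures kept on mitotically inactivated fibroblast feeders in knockout DMEM with 10% serum and 1000 U/ml of the cytokine LIF. The EpiLCs came from the same line after 48 h in serum-free N2B27 medium without LIF, with 10 ng/ml bFGF and 5 µM LGK974, a drug that blocks the porcupine enzyme encoded by *Porcn*. Feeders were depleted by their adhesion to plastic before differentiation began, and whether they were depleted from the ESC samples before lysis is not given in the sources used here. Serum, LIF, feeders, bFGF, LGK974 and time all changed between the groups, so their contributions to any difference between ESCs and EpiLCs cannot be told apart. In bulk RNA, fewer cells that express a gene and less of its RNA per cell also cannot be told apart.

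WNT proteins are secreted lipid-modified glycoproteins. Porcupine, an acyltransferase of the endoplasmic reticulum, attaches a palmitoleate group to them, and the carrier protein Wntless, encoded by *Wls*, takes the acylated ligand to the cell surface, where it binds Frizzled receptors with the co-receptors LRP5 and LRP6 and stabilizes β-catenin, or acts through ROR and RYK receptors. In mouse pluripotent cells WNT signalling sustains the naive state, and in the embryo *Wnt3* is needed to form the primitive streak.

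Of the 10 genes, 7 were lower in EpiLCs than in ESCs, 0 were higher and 3 did not pass the test. All 10 log2 fold changes were below 0, so that 0 were higher at an unadjusted p either, and DESeq2 and limma also called 0 higher. The genes that fell were *Porcn*, *Wls*, *Wnt3*, *Wnt4*, *Wnt5a*, *Wnt5b* and *Wnt6*, which were 4.26-fold to 10.6-fold lower. Over all genes tested, 22.8% were lower in EpiLCs and 22.6% were higher at the same threshold, an adjusted p of at most 0.05 in edgeR's quasi-likelihood test. The median log2 fold change of the 10 genes was -2.27, against -0.0017 for the 14468 genes tested. For *Wnt3a*, *Wnt7b* and *Wnt8a* the values of ESC and EpiLC libraries overlapped. For the other 7 every EpiLC library lay below every ESC library, as was the case for 25.6% of all genes tested.

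**Figure D1:**
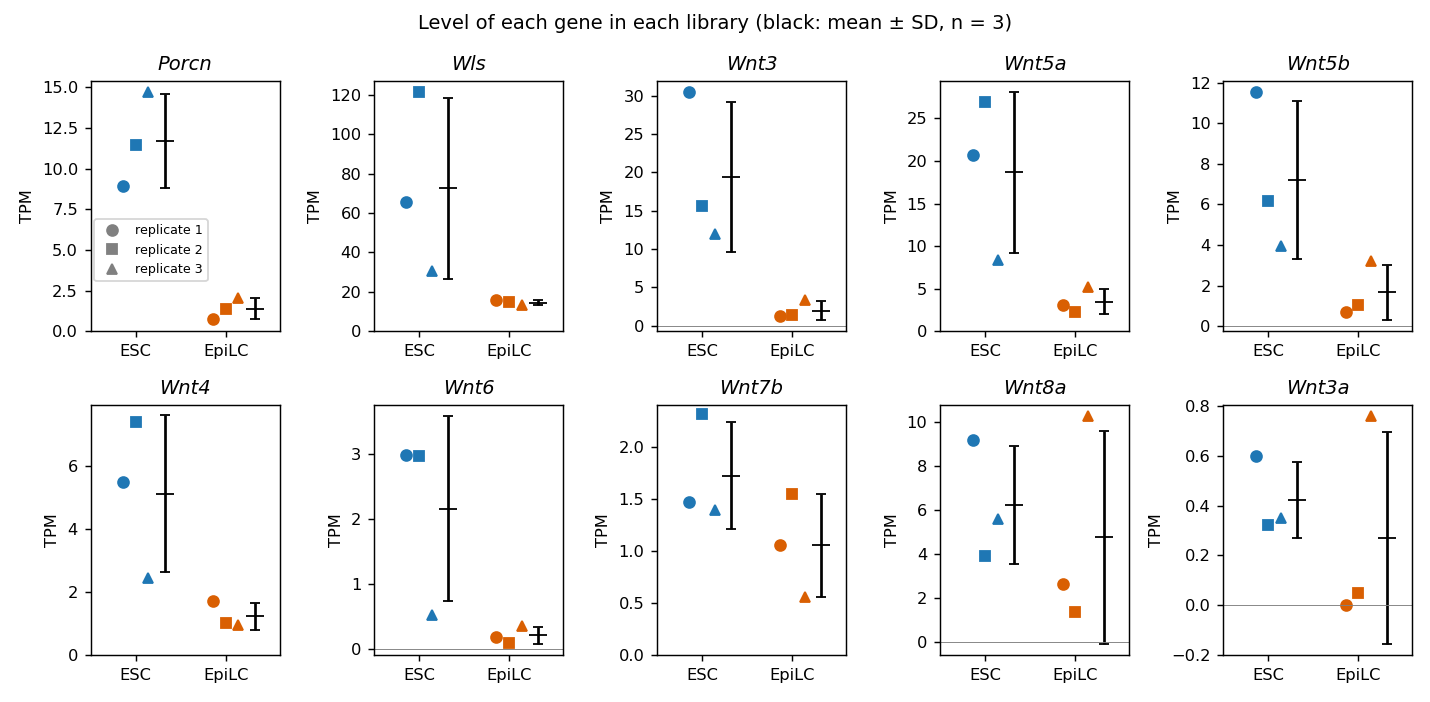
Level of each of the 10 genes in TPM (transcript level scaled for length and library, linear axes that differ between panels) in 3 ESC libraries (blue) and 3 EpiLC libraries (orange), with symbols for replicates 1 to 3 and black bars for the mean ± SD. EpiLC points lie below all ESC points in 7 panels, and the points overlap for Wnt7b, Wnt8a and Wnt3a.

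Windows of 250 bases before an annotated transcription start were taken from RefSeq (GRCm38.p6) for 6 of the 10 genes, 8 windows in all. No window was taken for *Porcn*, *Wnt5a*, *Wnt7b* or *Wnt8a*, so statements on the windows do not cover these genes. Those of *Wls*, the gene with the highest level of the 10, of *Wnt6*, a ligand at the low end of the levels, and of *Wnt3* and *Wnt5b*, which held the motif matches, are shown 5′ to 3′ on the strand of the gene, with matches in capitals.
Wls, chr3:159839400-159839649, plus strand: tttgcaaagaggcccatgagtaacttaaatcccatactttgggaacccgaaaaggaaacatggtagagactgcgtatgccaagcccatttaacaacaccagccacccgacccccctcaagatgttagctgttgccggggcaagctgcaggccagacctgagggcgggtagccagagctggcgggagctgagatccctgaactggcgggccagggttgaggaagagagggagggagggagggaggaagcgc
Wnt3, chr11:103773925-103774174, plus strand: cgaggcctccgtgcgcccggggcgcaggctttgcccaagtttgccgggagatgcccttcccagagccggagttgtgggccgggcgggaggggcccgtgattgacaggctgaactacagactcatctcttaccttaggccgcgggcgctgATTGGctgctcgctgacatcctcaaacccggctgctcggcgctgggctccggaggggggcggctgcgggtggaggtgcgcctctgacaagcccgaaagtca
Wnt5b, chr6:119449387-119449636, minus strand: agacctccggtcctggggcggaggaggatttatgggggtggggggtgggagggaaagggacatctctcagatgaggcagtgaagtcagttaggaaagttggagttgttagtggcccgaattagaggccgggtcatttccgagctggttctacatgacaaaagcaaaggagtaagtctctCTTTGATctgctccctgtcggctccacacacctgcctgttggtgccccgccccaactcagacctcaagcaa
Wnt6, chr1:74771642-74771891, plus strand: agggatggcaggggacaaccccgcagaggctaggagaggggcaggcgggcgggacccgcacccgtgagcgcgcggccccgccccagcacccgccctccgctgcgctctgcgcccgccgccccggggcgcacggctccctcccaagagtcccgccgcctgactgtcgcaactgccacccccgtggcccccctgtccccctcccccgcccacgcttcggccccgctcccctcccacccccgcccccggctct

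The windows were searched on both strands for 5 short motifs: CTTTGAT and CTTTGAA, the core letters of TCF/LEF sites through which β-catenin acts, CATTGT, a core of SOX sites, the CCAAT box and TATAAA. The *Wnt5b* window held CTTTGAT at positions -71 to -65 from the start, a motif present in 3.21% of the 32851 RefSeq windows of the same length. In the *Wnt3* window CCAAT lay on the opposite strand at -101 to -97, printed as its reverse complement, and this motif occurred in 33.8% of all windows. The windows of *Wls*, *Wnt3a*, *Wnt4* and *Wnt6*, and 2 further *Wnt5b* windows, held 0 matches. Over all windows, 4.46% held CTTTGAA and 10.7% held the SOX core. TATAAA occurred in 12.4% of them. No match overlapped another. The GC content of the 8 windows ranged from 53.2% to 87.6%, all above the median of 52.4% over all windows. CpG dinucleotides numbered 4 to 44 per window, against a median of 6, with the *Wnt4* window at 44 and the *Wnt3a* window at 41. The *Wnt6* window and all 3 *Wnt5b* windows, including that with the CTTTGAT match, lie inside the genes as RefSeq spans them, before starts further into the gene.

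Of the secretion genes, *Porcn* (chrX:8193846-8206548, minus strand) had levels of 8.94, 11.46 and 14.68 TPM in ESC replicates 1, 2 and 3 and of 0.77, 1.37 and 2.02 TPM in EpiLC replicates 1, 2 and 3. TPM is a share of all transcripts scaled for transcript length, so that levels of different genes can be set side by side. The lowest ESC library was above the highest EpiLC library, and the highest ESC library was 1.64 times the lowest. The mean fell from 11.7 ± 2.88 to 1.39 ± 0.625 TPM (SD, n = 3), a log2 fold change of -3.17 (SE 0.34) and a 9.02-fold lower level (adjusted p = 0.000635). LGK974 acts on the porcupine enzyme, and these libraries measured its mRNA, not its activity.

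*Wls* (chr3:159839650-159938666, plus strand) had the highest level of the 10 genes in every library. It measured 65.35, 121.57 and 30.56 TPM in the ESC libraries and 15.65, 14.62 and 13.23 TPM in the EpiLC libraries. The ESC libraries differed by 3.98 times while the EpiLC libraries lay close together. The ESC mean was 72.5 ± 45.9 TPM, the EpiLC mean 14.5 ± 1.21 TPM (SD, n = 3), and the log2 fold change was -2.42 (SE 0.46, adjusted p = 0.00593), or 5.34-fold lower. Without ESC replicate 2, the library with the highest *Wls*, the log2 fold change was -1.80 (SE 0.29, adjusted p = 0.00333).

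Among the ligands, *Wnt3* (chr11:103774175-103818021, plus strand) had the highest mean in ESCs, close to that of *Wnt5a*. It stood at 30.43, 15.66 and 12.01 TPM in ESC replicates 1 to 3 and at 1.19, 1.34 and 3.37 TPM in EpiLC replicates 1 to 3. The highest EpiLC library, replicate 3, was still below the lowest ESC library. The ESC mean of 19.4 ± 9.75 TPM compared with an EpiLC mean of 1.97 ± 1.22 TPM (SD, n = 3), with a log2 fold change of -3.35 (SE 0.52, adjusted p = 0.00269) and a 10.2-fold lower level. Without EpiLC replicate 3 the log2 fold change was -3.98 (SE 0.48, adjusted p = 0.0035). *Wnt9b*, which overlaps the start of *Wnt3* on the other strand, was at 0.07 to 0.57 TPM in ESCs and at most 0.12 TPM in EpiLCs, too low to be tested. Reads were counted by strand.

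*Wnt3a* (chr11:59248036-59290751, minus strand), a ligand of the posterior streak and paraxial mesoderm in the embryo, was near the detection limit. It had 17, 7 and 13 reads in the ESC libraries and 0, 2 and 30 reads in the EpiLC libraries, which corresponded to 0.60, 0.32 and 0.35 TPM against 0.00, 0.05 and 0.76 TPM. EpiLC replicate 3 was the highest of the 6 libraries and the other EpiLC libraries were below all ESC libraries. With all libraries the log2 fold change was -0.75 (SE 1.15, adjusted p = 0.624). Without EpiLC replicate 3 the fitted log2 fold change was -4.08 (SE 0.87, adjusted p = 0.0187), a value that rests on 0 and 2 reads in EpiLCs and depends on the fit at such counts. *Wnt9a*, which lies next to *Wnt3a*, was at 2.12, 5.13 and 0.87 TPM in ESCs and 2.14, 2.23 and 1.11 TPM in EpiLCs, values that overlapped.

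*Wnt8a* (chr18:34542327-34548061, plus strand), known from the early streak and posterior epiblast, had the same outlying library. Its levels were 9.20, 3.93 and 5.58 TPM in ESC replicates 1 to 3 and 2.63, 1.37 and 10.28 TPM in EpiLC replicates 1 to 3. EpiLC replicate 3 was above every ESC library, whereas EpiLC replicates 1 and 2 were below them all. The means of 6.24 ± 2.7 and 4.76 ± 4.82 TPM (SD, n = 3) gave a log2 fold change of -0.44 (SE 0.72, adjusted p = 0.646). Without EpiLC replicate 3 it was -1.69 (SE 0.49, adjusted p = 0.0447), and without EpiLC replicate 2 it was 0.01 (adjusted p = 0.99), so the direction itself rested on single libraries.

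Leaving out EpiLC replicate 3 thus brought the number of genes called lower from 7 to 9 of 10, while the share over all genes tested went from 22.8% to 17.2%. *Wnt7b* was the gene still not called.

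*Wnt5a* (chr14:28504543-28527448, plus strand), which acts mainly without β-catenin and is needed for the body axis to extend, had a mean over the 6 libraries of 11.1 TPM, close to the 10.7 TPM of *Wnt3*, although *Wnt3* had the higher mean in ESCs and *Wnt8a* in EpiLCs. It measured 20.74, 26.87 and 8.38 TPM in the ESC libraries and 3.09, 2.22 and 5.14 TPM in the EpiLC libraries. ESC replicate 3 was the lowest ESC library and EpiLC replicate 3 the highest EpiLC library, and they did not overlap. The mean fell from 18.7 ± 9.42 to 3.48 ± 1.5 TPM (SD, n = 3), 5.82-fold lower (log2 fold change -2.54, SE 0.48, adjusted p = 0.00557).

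*Wnt5b* (chr6:119432531-119544824, minus strand), the closest relative of *Wnt5a*, was the least secure of the calls. Its levels were 11.52, 6.16 and 3.95 TPM in ESCs and 0.72, 1.07 and 3.22 TPM in EpiLCs. The lowest ESC and the highest EpiLC library were close, although they did not overlap. The log2 fold change was -2.12 (SE 0.64, adjusted p = 0.0315). It passed in 3 of the 6 fits that left out 1 library, and the adjusted p was 0.0988 without ESC replicate 1, 0.0895 without EpiLC replicate 1 and 0.103 without EpiLC replicate 2, with log2 fold changes of -1.62, -1.75 and -1.87. Without EpiLC replicate 3 the change was larger, at -3.02. *Fbxl14*, a gene within *Wnt5b* on the other strand, was at a mean of 36.8 TPM in ESCs and 45.6 TPM in EpiLCs.

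*Wnt4* (chr4:137277635-137299501, plus strand), best known from kidney and gonad development, was at 5.51, 7.40 and 2.46 TPM in ESCs and 1.73, 1.01 and 0.96 TPM in EpiLCs. All ESC libraries were above all EpiLC libraries, with ESC replicate 3 the nearest to them. The level was 4.26-fold lower in EpiLCs (log2 fold change -2.09, SE 0.44, adjusted p = 0.00861). With ESC replicate 2 and EpiLC replicate 3 both left out, the adjusted p was 0.05002, just above the threshold, at a log2 fold change of -1.59.

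*Wnt6* (chr1:74754342-74785322, plus strand), a ligand of surface ectoderm and extraembryonic endoderm, had few reads. There were 63, 48 and 14 in the ESC libraries and 6, 3 and 10 in the EpiLC libraries, or 2.98, 2.97 and 0.51 TPM against 0.18, 0.09 and 0.34 TPM. ESC replicate 3 stood well below the other ESC libraries, and the ratio of the highest to the lowest ESC library, 5.84, was the largest of the 10 genes. The log2 fold change was -3.41 (SE 0.78, adjusted p = 0.0118), 10.6-fold lower, which did not differ from those of *Wnt3* and *Porcn* by more than its error, and their order changed with the library left out. Without EpiLC replicate 1 the adjusted p of *Wnt6* was 0.052. *Wnt10a*, downstream of *Wnt6* on the same strand, was at 0.60, 2.81 and 0.35 TPM in ESCs and 0.22, 0.33 and 0.25 TPM in EpiLCs and was not tested.

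*Wnt7b* (chr15:85535437-85581821, minus strand), which acts in placenta and lung, did not pass the test. Its values of 1.47, 2.32 and 1.39 TPM in ESCs and 1.06, 1.55 and 0.56 TPM in EpiLCs overlapped. The log2 fold change was -0.75 (SE 0.40, adjusted p = 0.165), and it passed the threshold in 0 of 13 alternative fits, in which it ranged from -1.12 to -0.20.

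**Figure D2:**
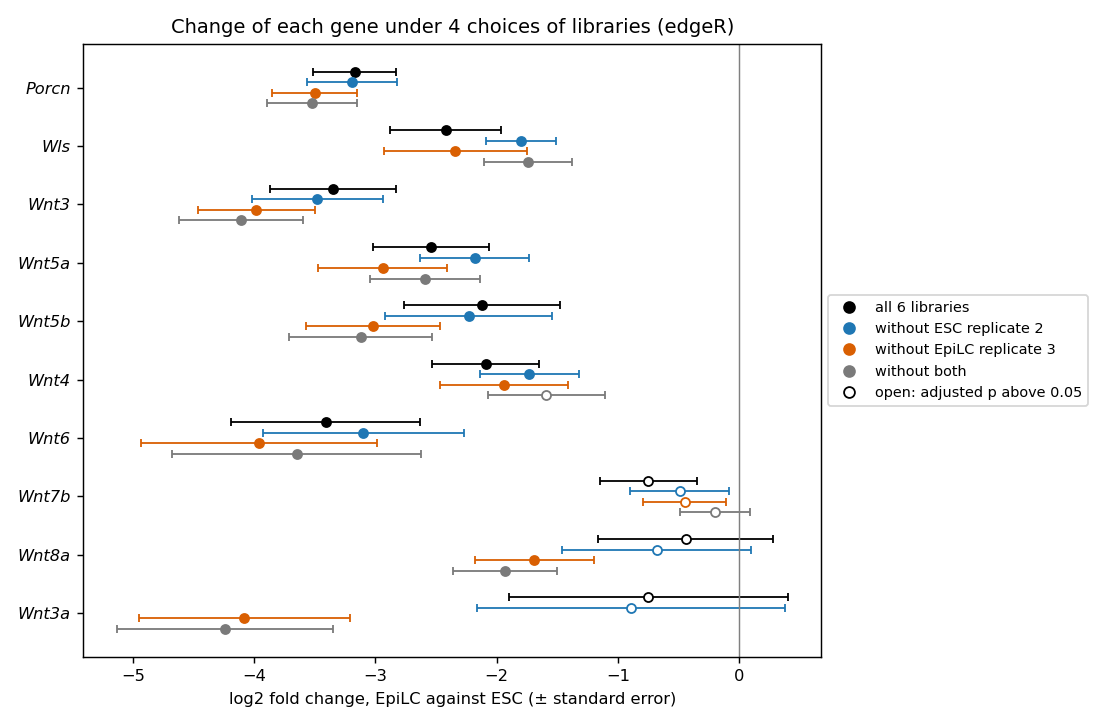
Log2 fold change of EpiLCs against ESCs (± standard error, edgeR) for each of the 10 genes with all 6 libraries (black), without ESC replicate 2 (blue), without EpiLC replicate 3 (orange) and without both (grey), where open symbols have an adjusted p above 0.05. Wnt3a moves from -0.75 to -4.08 and Wnt8a from -0.44 to -1.69 without EpiLC replicate 3, whereas Porcn stays between -3.52 and -3.17.

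In ESCs the mean levels ran from *Wls* (72.5 TPM) through *Wnt3*, *Wnt5a*, *Porcn*, *Wnt5b*, *Wnt8a*, *Wnt4*, *Wnt6* and *Wnt7b* to *Wnt3a* (0.423 TPM). Neighbours in this order overlapped in their range over the libraries except *Wls* and *Wnt3*, and *Wnt7b* and *Wnt3a*. In EpiLCs the order was *Wls* (14.5 TPM), *Wnt8a*, *Wnt5a*, *Wnt3*, *Wnt5b*, *Porcn*, *Wnt4*, *Wnt7b*, *Wnt3a* and *Wnt6* (0.203 TPM), and *Wls* and *Wnt8a* were the only neighbours whose ranges did not overlap. *Wnt8a* stood sixth in ESCs and second in EpiLCs, by a mean that its value in EpiLC replicate 3 dominated.

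Summed over the 8 ligands, the level was 82.5, 65.6 and 34.6 TPM in ESC replicates 1 to 3 and 10.6, 8.7 and 24.6 TPM in EpiLC replicates 1 to 3. The lowest ESC library was above the highest EpiLC library. The mean sum of 60.9 ± 24.3 TPM in ESCs was 4.16 times the 14.6 ± 8.68 TPM of EpiLCs (SD, n = 3), with no test made on it. These 8 ligands made up 84.0% ± 3.39 of the summed TPM of all 19 WNT ligands in ESCs and 74.2% ± 12.0 in EpiLCs, ranges that overlapped.

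The make-up of the sum differed for *Wnt3*. It contributed 36.9%, 23.9% and 34.7% of the 8-ligand sum in ESC replicates 1 to 3 and 11.2%, 15.4% and 13.7% in EpiLC replicates 1 to 3, which did not overlap. The share of *Wnt5a* overlapped, with a mean of 30.1% ± 9.37 in ESCs and 25.2% ± 4.16 in EpiLCs (SD, n = 3). *Wnt8a* took 11.2%, 5.99% and 16.1% in ESCs and 24.8%, 15.7% and 41.7% in EpiLCs. The level of *Wls* relative to *Porcn* overlapped as well, at 7.31, 10.6 and 2.08 in ESCs and 20.3, 10.7 and 6.55 in EpiLCs. Shares of a sum depend on each other, and no test was made on them.

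**Figure D3:**
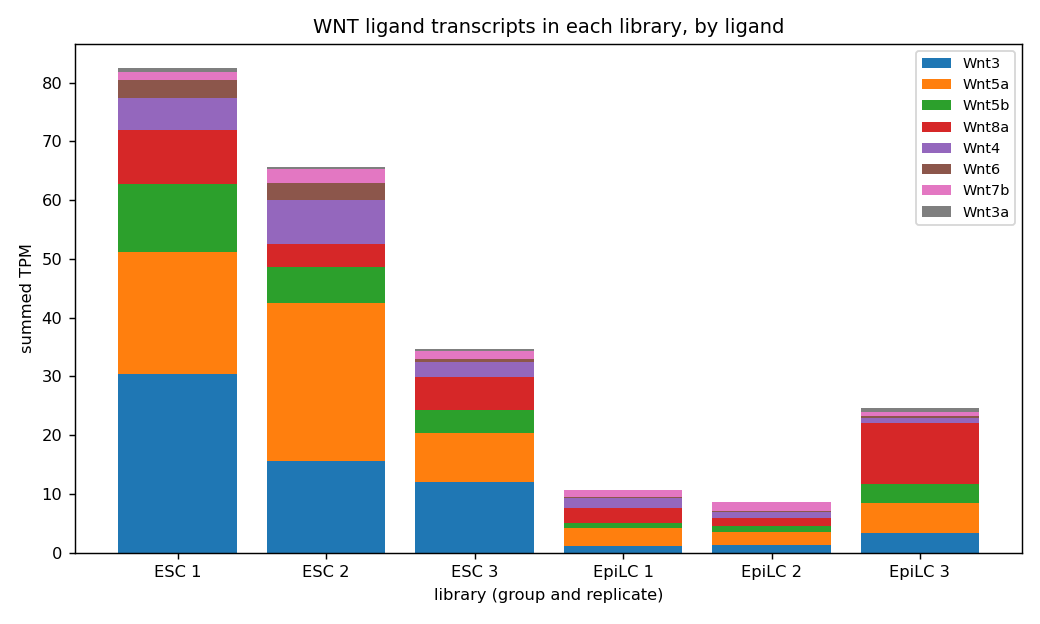
Summed TPM of 8 WNT ligand genes in each of the 6 libraries (stacked bars from 0, one colour per ligand). The bars of ESC replicates 1, 2 and 3 reach 82.5, 65.6 and 34.6, those of EpiLC replicates 1, 2 and 3 reach 10.6, 8.7 and 24.6, and the share of Wnt3 is smaller in the EpiLC bars.

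Within each group the order of the libraries varied between these genes. Some genes shared an order, and whether they did so more than by chance was not tested. For *Wls*, *Wnt4*, *Wnt5a* and *Wnt7b*, replicate 2 was the highest ESC library and replicate 3 the lowest, whereas *Wnt3*, *Wnt5b* and *Wnt6* were highest in replicate 1 and lowest in replicate 3. For *Wnt6*, ESC replicates 1 and 2 were nearly equal, at 2.98 and 2.97 TPM. *Wnt3a* and *Wnt8a* peaked in ESC replicate 1 and were lowest in replicate 2, and *Porcn* had the reverse order of *Wnt3*. In EpiLCs, replicate 3 was highest for 7 of the 10 genes, namely *Porcn*, *Wnt3*, *Wnt3a*, *Wnt5a*, *Wnt5b*, *Wnt6* and *Wnt8a*. *Wls* and *Wnt4* were highest in EpiLC replicate 1 and *Wnt7b* in replicate 2.

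Markers of other cell types also differed between the libraries of a group, with orders that some of these genes shared. The summed level of 12 fibroblast markers was 310, 1240 and 114 TPM in ESC replicates 1 to 3 and 44.8 to 79 TPM in EpiLCs. All 12 were highest in ESC replicate 2 of the ESC libraries, none was at 0 in all libraries, and 6 of the 11 tested were lower in EpiLCs. The counts called in all marker lists are to be read against 22.8% lower and 22.6% higher over all genes tested. The summed level of 9 primitive streak markers was 532, 210 and 175 TPM in ESC replicates 1 to 3 and 8.56, 8.98 and 51.2 TPM in EpiLC replicates 1 to 3, none was at 0 in all libraries, and 7 of 9 were lower in EpiLCs. The streak factor *T*, also counted among the WNT target genes, was not one of the 7 (log2 fold change -3.23, SE 1.36, adjusted p = 0.0925). It was at 179.94, 73.02 and 40.01 TPM in ESCs and 0.87, 0.69 and 30.69 TPM in EpiLCs. All 9 streak markers were highest in ESC replicate 1 of the ESC libraries, and 7 of 9 in EpiLC replicate 3 of the EpiLC libraries. The fibroblast sum had the ESC order of *Wls*, *Wnt4*, *Wnt5a* and *Wnt7b*, and the streak sum that of *Wnt3*, *Wnt5b* and *Wnt6*. The place of *Wnt6* rested on 2.98 against 2.97 TPM in ESC replicates 1 and 2. That of *Wnt7b* rested on 1.47 against 1.39 TPM in ESC replicates 1 and 3. The primitive endoderm and trophoblast sums had the same ESC order as the streak sum. In EpiLCs the fibroblast sum was highest in replicate 2 and lowest in replicate 3, an order that *Wnt7b* shared and *Wls*, *Wnt4* and *Wnt5a* did not. The streak sum was highest in EpiLC replicate 3 and lowest in replicate 1, by 8.56 against 8.98 TPM in replicate 2. *Wnt3*, *Wnt5b*, *Wnt3a* and *Porcn* shared this EpiLC order, and *Wnt6* did not. *Wnt3a*, *Wnt8a* and *Porcn* had the ESC order of neither sum, and all 7 naive ESC markers were highest in ESC replicate 3, as was *Porcn*. With ESC replicate 2 and EpiLC replicate 3 both left out, 8 of the 10 genes were lower, against 21.1% of all genes tested. The part of these cell types in the differences between ESCs and EpiLCs was not tested.

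**Figure D4:**
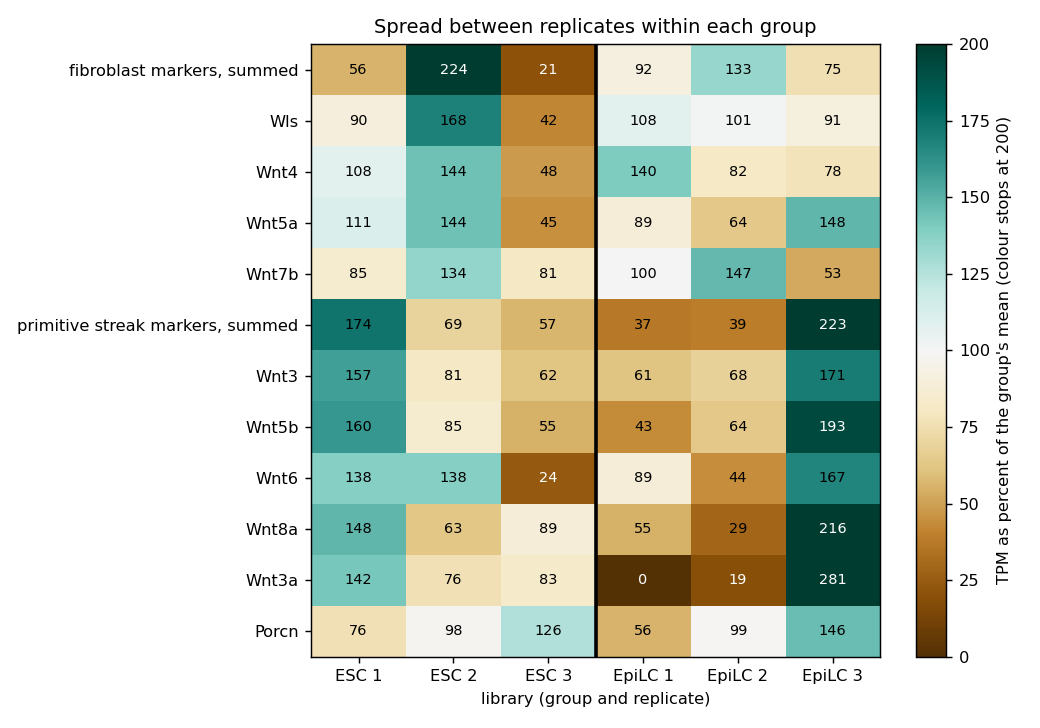
TPM of each gene, and of the summed fibroblast and primitive streak markers, in each library as a percent of the mean of its own group (colour scale capped at its top). ESC replicate 2 is at 224 for the fibroblast markers and 168 for Wls, and EpiLC replicate 3 is at 223 for the streak markers, 216 for Wnt8a and 281 for Wnt3a.

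The summed markers of other lineages varied less between the libraries of a group. Of the EpiLC libraries, replicate 3 was highest for 2 of 5 trophoblast markers, among them *Cdx2* (1.61, 0.81 and 7.63 TPM). It was highest for 3 of 8 primitive endoderm markers, among them *Foxa2* (0.46, 0.70 and 2.05 TPM). The sum of 8 primitive endoderm markers was 57.2, 42.9 and 33.5 TPM in ESC replicates 1 to 3 and 11.2 to 11.8 TPM in EpiLCs, with 5 lower and 1 higher. The 5 trophoblast markers summed to 12.2 to 30.7 TPM in ESCs and 12.6 to 15.7 TPM in EpiLCs, with 2 lower and 1 higher of 4 tested. Over all genes tested, 22.8% were lower and 22.6% were higher. The 4 neural markers summed to at most 5.85 TPM in any library. The labelled cell types matched their own markers, since all 7 naive ESC markers were lower in EpiLCs (sums of 1970 to 2620 TPM against 59.2 to 84.1 TPM) and all 5 EpiLC markers were higher (293 to 399 TPM against 2050 to 2130 TPM). *Pou5f1* and *Sox2* together were at 1500 to 1800 TPM in ESCs and 1500 to 1710 TPM in EpiLCs, with *Sox2* lower. Total counts were between 16967741 and 28521848 in ESCs and between 30683164 and 35096210 in EpiLCs, so that 3 reads, the least taken as detection, corresponded to 0.0855 to 0.177 CPM (counts scaled to the library total), for counting error only.

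The other 11 WNT ligands gave 3 lower, 1 higher and 2 not called among the 6 that could be tested, with a median log2 fold change of -2.31. Over all genes tested, 22.8% were lower and 22.6% were higher. *Wnt2b* fell from 3.25 ± 3.0 to 0.127 ± 0.0709 TPM (log2 fold change -4.71, SE 0.81, adjusted p = 0.00386, or -3.64 without ESC replicate 1) and *Wnt11* from 2.48 ± 1.17 to 0.11 ± 0.0557 TPM (-4.59, SE 0.53, adjusted p = 0.000821). *Wnt16* was the ligand that rose, from 0.193 to 1.11 TPM (log2 fold change 2.44, adjusted p = 0.00239), and *Wnt2* the third that fell (-4.02, adjusted p = 0.00918, or -5.10 without EpiLC replicate 2). Both have a mean under 1 TPM and were named after their values were seen. The 3 ligands that fell had 0 to 11 reads in any EpiLC library, and *Wnt16* had 2 to 5 in any ESC library. Each thus passed the filter only through the group where it was high, so these directions and the median depend in part on the filter.

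The 10 partners of secretion, which recycle *Wls* protein through the retromer, carry it between compartments or make the fatty acid that porcupine uses, had a median log2 fold change of -0.02, with 2 higher and 4 lower, where 22.6% and 22.8% of all genes tested were higher and lower. The desaturases *Scd1* (49.9 to 184 TPM, log2 fold change 1.83, SE 0.24, adjusted p = 0.00122) and *Scd2* (361 to 690 TPM, 0.88, SE 0.15, adjusted p = 0.00339) rose. The retromer subunit gene *Vps26a* (-0.59), its partner *Snx3* (-0.42) and the cargo receptor *Tmed10* (-0.26) had smaller changes than any of the 7 called genes above. The number lower was 2 without any 1 EpiLC library, and *Tmed10* then had an adjusted p of 0.0528 to 0.0643.

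Of the 16 receptor genes, 7 were higher and 2 lower, with a median of 0.42, to be read against the same shares of 22.6% and 22.8%, as are the lists that follow. *Ror1*, a receptor for WNT5A, rose from 3.23 ± 1.1 to 19.6 ± 3.54 TPM (log2 fold change 2.59, SE 0.28, adjusted p = 0.000657). The Frizzled genes *Fzd2* (1.34) and *Fzd3* (1.24) rose while *Fzd10* (-2.60, or -3.54 without EpiLC replicate 3) and *Fzd5* (-1.70) fell. Of the 17 extracellular antagonists 15 were tested, with 1 higher, 6 lower and a median of -1.02. *Notum*, which removes the lipid that porcupine adds, fell from 20.5 ± 7.13 to 1.15 ± 0.254 TPM (log2 fold change -4.19, SE 0.32, adjusted p = 0.000192). *Dkk1* (-3.85, or -5.21 without EpiLC replicate 3) and *Sfrp5* (-2.33) also fell, *Sfrp2* (1.36) rose, and *Dkk4* was at 0 in every library.

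The 9 genes of the R-spondin module, in which R-spondins and their LGR receptors restrain the ubiquitin ligases that remove Frizzled, had 8 tested, 1 higher and 4 lower, with a median of -0.29. *Rspo1* rose from 1.83 to 13.4 TPM (log2 fold change 2.79, SE 0.21, adjusted p = 0.000193), and *Rspo2* (-3.42), *Rspo3* (-3.04) and *Lgr4* (-0.31) fell with all libraries. The number called lower was 0 to 2 when any 1 library was left out. *Rspo2*, at 1.32, 10.24 and 1.23 TPM in the ESC libraries, had a log2 fold change of -1.69 without ESC replicate 2, the library with high fibroblast markers. *Rspo3*, at 0.51, 0.29 and 3.24 TPM in the EpiLC libraries, had one of -4.76 without EpiLC replicate 3 and of -2.38 without ESC replicate 1 (adjusted p = 0.0961). Of 8 WNT target genes 2 were higher and 3 lower, with a median of -1.08. The feedback gene *Axin2* fell from 37.0 ± 10.4 to 10.0 ± 2.76 TPM (log2 fold change -1.93, SE 0.26, adjusted p = 0.00143), and *Lef1* (1.57) and *Nkd2* (1.08) rose. *Sp5* and *Cdx1* fell as well, with fitted log2 fold changes of -5.03 (SE 1.21, adjusted p = 0.0141) and -5.10 (SE 0.90, adjusted p = 0.00434) that moved most without EpiLC replicate 3. In the EpiLC libraries *Sp5* had 3, 0 and 101 reads and *Cdx1* had 1, 0 and 7, and without replicate 3 the fitted values were -9.54 and -7.27, which depend on the fit at such counts.

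**Figure D5:**
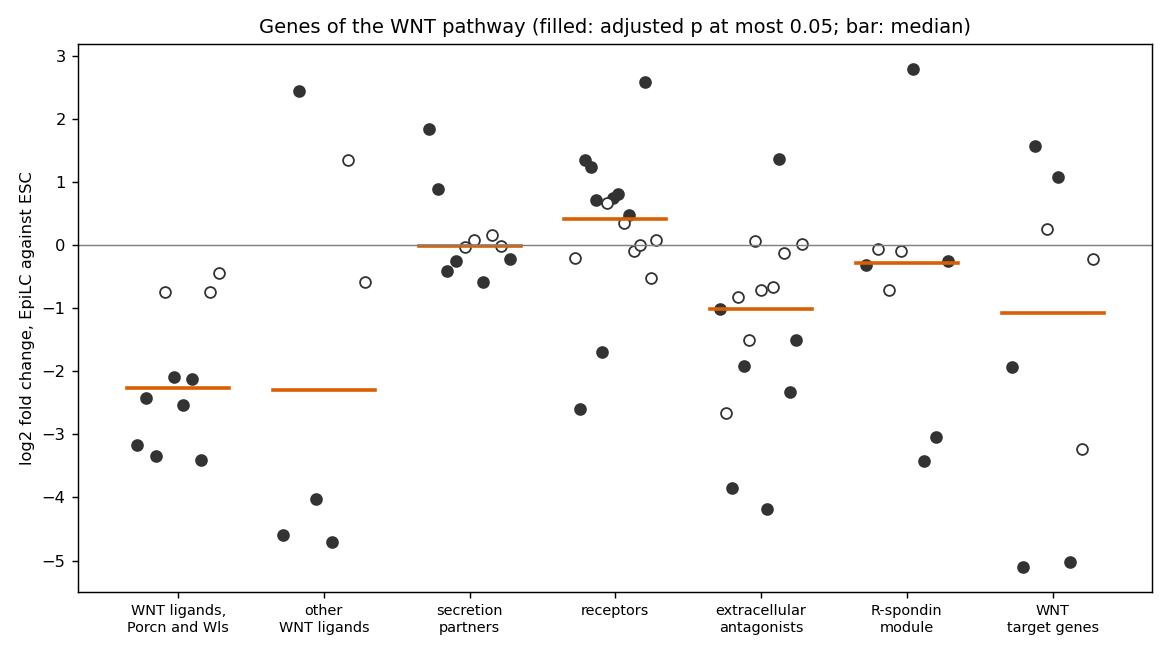
Log2 fold change of EpiLCs against ESCs for each tested gene of the 10 described genes and of 6 lists of the WNT pathway (circles, filled where the adjusted p is at most 0.05) with the median of each list (orange bar). The median lies at -2.27 for the 10 genes, -2.31 for the other ligands, -0.02 for secretion partners, 0.42 for receptors, -1.02 for antagonists, -0.29 for the R-spondin module and -1.08 for target genes.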

How the data were processed

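Poly(A) libraries (KAPA mRNA HyperPrep, stranded, single reads of 76 nt, Illumina HiSeq) were processed by the authors with cutadapt 1.16, STAR 2.5.2a and RSEM 1.3.0 on mm10 with RefSeq genes, and the submitters' processing notes also name DESeq2 1.16.1. Both measures deposited by the authors were used, namely expected counts from RSEM, without normalization and with reads shared between genes split, and TPM, which is scaled for transcript length and depth. All 60 expected counts of the 10 genes were whole numbers as deposited (to 2 decimals, with no tolerance), whereas 4.27% to 4.65% of all values per library were not. The culture methods give a longer time for EpiLCs than the labels, and the 48 h of the labels was used.

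Counts were rounded and tested in edgeR 4.0.16 (R 4.3.3) by the quasi-likelihood test with TMM factors (0.979 to 1.02) and filterByExpr, which kept 14468 of 24736 genes and all 10 described here. P-values were adjusted by Benjamini-Hochberg over all genes tested, with a threshold of 0.05. Standard errors were the log2 fold change divided by the root of the F statistic. The test was tried on simulated counts with known changes. Alternatives were upper-quartile scaling, DESeq2 1.42.0, no filter, at least 10 counts in every sample, a replicate block and leaving out each library. Leaving out ESC replicate 2 with EpiLC replicate 3, and limma 3.58.1 on log2(TPM + 1), were added after seeing the data.

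The 10 genes and the pathway and marker lists were chosen with earlier results of these data known. From each pathway list, up to 3 genes called higher and 3 called lower with the largest change and a mean of at least 1 TPM were named, with ligands next to a described ligand. For *Porcn* and the ligand with the highest mean TPM, the 5 genes with the highest Pearson r of log2 CPM (prior count 2) were named. Gene positions came from RefSeq on GRCm38.p6, the patch release of mm10.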

Additional observations from a re-analysis of the deposited data

How the results depend on the processing

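The number of described genes called lower was 7 with all libraries, 5 to 9 when 1 library was left out, and 6 to 8 in the other alternatives. It was 7 with upper-quartile scaling, DESeq2, no filter and limma on log2(TPM + 1). The number called higher was 0 in all 13. Of the values of single genes under an alternative, 117 kept their direction and side of the threshold, 4 came to pass it, 6 no longer passed and 1 reversed. *Wnt8a* reversed to 0.01 without EpiLC replicate 2 and ranged from -1.69 to 0.01 over the libraries left out. *Wnt3a* ranged from -4.08 to -0.13 and *Wnt5b* from -3.02 to -1.62. With the replicate block, 6 genes were lower, and *Wnt5b* had a log2 fold change of -2.23 (adjusted p = 0.0564). Deviations of samples with the same number had correlations of 0.00668, 0.186 and 0.17, and ESC replicate 1 correlated best with EpiLC replicate 3 (0.0836), so the pairing was not used. With limma on log2(TPM + 1), which understates changes of low genes, *Wnt6* was at -1.26. With at least 10 counts in every sample, *Wnt3a* and *Wnt6* were not tested. The log2 ratio of the summed ligands was -2.12, from -2.58 to -1.82 over the libraries left out.

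Some list counts moved by over 1.5 times, from causes that were not tested unless named. Other ligands called lower were 3 with all libraries, 5 with DESeq2 or without ESC replicate 3, and 0 with at least 10 counts in every sample, which left fewer of them to test. Other ligands called higher were 1, 2 without ESC replicate 2, and 0 with that filter. Secretion partners lower were 4, and 2 without any 1 EpiLC library. R-spondin genes lower were 4, and 0 without EpiLC replicate 1 or 2, 1 without EpiLC replicate 3 or with limma, and 2 without any 1 ESC library or without ESC replicate 2 and EpiLC replicate 3. Target genes lower were 3, 1 with the filter, and 5 without that pair. Over all genes, 2144 were higher and 2100 lower without EpiLC replicate 1, against 3267 and 3304.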

Other observations

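The genes whose levels over the 6 libraries were most like that of *Porcn* were *Aldh3a2* (Pearson r of log2 CPM 0.9994), *Fer* (0.9994), *Cpne5* (0.9982), *Zbtb20* (0.9981) and *Mrpl35* (0.9978). *Cpne5* was at 2.70, 3.08 and 4.01 TPM in ESC replicates 1 to 3 and 0.35, 0.58 and 0.68 TPM in EpiLC replicates 1 to 3, with the libraries ordered as for *Porcn* within both groups. *Mrpl35*, with 26.78 to 27.58 TPM in ESCs and 22.53 to 23.59 TPM in EpiLCs, had a far smaller change, and its highest EpiLC library was replicate 2 and not replicate 3. The points share a large difference between 2 groups of 3, and 960 genes reached an r of 0.95 with *Porcn*. Of the described genes *Wnt3* was the most like *Porcn* (0.93) and *Wnt8a* the least (0.49).

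For *Wnt5a*, the ligand with the highest mean over all libraries though not within either group, the most alike were *Gfra2* (0.9969), *Sh3bp4* (0.995), *Id3* (0.9941), *Supt4a* (0.994) and *Snx5* (0.9936), and 298 genes reached 0.95. *Id3*, an inhibitor of basic helix-loop-helix factors, was at 129.85, 168.35 and 74.32 TPM in ESC replicates 1 to 3 and 40.26, 26.08 and 47.86 TPM in EpiLC replicates 1 to 3, with the same order of libraries as *Wnt5a* within both groups. *Gfra2*, a co-receptor of GDNF family ligands, was at 3.90, 4.47 and 2.04 TPM and 0.70, 0.46 and 1.08 TPM in the same libraries. Among the ligands described, *Wnt6* was the most like *Wnt5a* (0.99) and *Wnt7b* the least (0.52).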
